A study of Rattus norvegicus with 18 samples.

Results

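miR-126a is a microRNA (miRNA) whose hairpin gives 2 mature arms. The rows rno-miR-126a-3p and rno-miR-126a-5p, matched by name, are described here out of the 599 miRNA rows of each library, and both passed the filter on low values described below. Small RNA from rat heart tissue was sequenced in 18 libraries, 6 from each of 3 groups. The first group was spontaneously hypertensive rats that received QDG, labelled QDG treatment, and is called QDG here. The second was SHR, the same strain labelled hypertension. The third was Wistar Kyoto rats, WKY, labelled normal. NS is named as the other treatment, with no full name given for NS or QDG, and whether WKY received NS too is not clear from the wording. The labels name no age or dose. Whether each library came from a rat of its own is not stated library by library, so the p-values measure the spread between libraries, part of which may be technical.

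miR-126 is the best known miRNA of endothelial cells, which line blood vessels and the chambers of the heart. In human and mouse its hairpin lies in an intron of Egfl7, a gene for a secreted endothelial protein, and both are made from the same transcript. The 3p arm represses Spred1 and Pik3r2, which hold back signalling from the receptor of vascular endothelial growth factor. The 5p arm has been shown in mouse endothelium to repress Dlk1, an inhibitor of Notch signalling. As a rule 1 arm of a miRNA duplex is kept in the Argonaute protein as the guide and the other is mostly lost, so the ratio of the arms is a property of its own.

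The arms and the antisense miRNA of the locus are shown to give the identity of the rows compared, with the seed (bases 2 to 8, which pair with target messages) in capitals. Sequences are RefSeq's, build GRCr8.
miR-126a-5p, chr3:29813182-29813202, plus strand: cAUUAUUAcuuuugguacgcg
miR-126a-3p, chr3:29813219-29813240, plus strand: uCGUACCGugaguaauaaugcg
miR-126b, chr3:29813177-29813198, minus strand: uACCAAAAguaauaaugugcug
The hairpin that carries both arms spans 73 bases at chr3:29813174-29813246 on the plus strand, with the arms in capitals below. It was read as the reverse complement of the listed antisense hairpin, which covers it.
miR-126a hairpin: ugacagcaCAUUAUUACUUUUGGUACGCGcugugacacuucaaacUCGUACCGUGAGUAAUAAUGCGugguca
The hairpin lies within Egfl7 (chr3:29802481-29814966), 1720 bases before the end of that gene. Whether it is intronic in this build was not analysed here. RefSeq files the sense hairpin under the symbol Mir126b, with Mir126a as a synonym, and the antisense one the other way round, so the arms are identified here by mature name and sequence.

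The arms have 21 and 22 bases with 16 bases between them. In the lowest energy fold (RNAfold, -29.6 kcal per mol) 18 base pairs joined them, of which 10 were A-U, 6 G-C and 2 G-U. Among the 693 mature rat names in the RefSeq table, 0 others had the seed of either arm. The nearest other mature sequence differed from miR-126a-5p by 7 bases and from miR-126a-3p by 8 without gaps. The antisense miR-126b overlaps miR-126a-5p over 17 bases as its reverse complement. Levels of miR-126b were not analysed here.

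Levels are reads per 1000000 (RPM) on the scale set by the authors, and the reads over miRNAs ran from 6420666 to 10169581 per library. miR-126a-3p made up 8.09% ± 0.698 of the reads summed over all miRNA rows (SD, n = 18) and took rank 2 or 3 in every library. miR-126a-5p made up 0.219% ± 0.0261 and took ranks 37 to 51. Both are shares of row counts, as it is not given how reads that match several rows were counted. The count behind the lowest value of either arm was 11367 reads, so counting error was small beside the spread between libraries. In these bulk libraries, fewer endothelial cells and less miR-126a per cell cannot be told apart. The arm ratio within a library is free of the scaling, while the levels are not.

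miR-126a-3p, the major arm, had its highest mean in QDG, and no difference between groups passed the limma test given below. In QDG the lowest, median and highest libraries had 113570, 116866 and 126667 RPM. In SHR they had 111351, 113779 and 123456 RPM. In WKY they had 85329, 113827 and 123654 RPM. The 3 groups overlapped, and WKY replicate 1, at 85329 RPM, lay below all other libraries. The means were 118012 ± 4536 RPM in QDG, 116252 ± 5025 RPM in SHR and 109616 ± 13389 RPM in WKY (SD, n = 6 each). The spread between libraries was 3.84% of the mean in QDG, 4.32% in SHR and 12.2% in WKY. Without replicate 1, WKY had 114474 ± 6865 RPM (SD, n = 5) and a spread of 6.00%.

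miR-126a-5p, the minor arm, had its highest mean in WKY, and no difference between groups passed the test. In QDG the lowest, median and highest libraries had 1898, 3087 and 3366 RPM. In SHR they had 2736, 3040 and 3404 RPM. In WKY they had 3002, 3378 and 3701 RPM. QDG replicate 4, at 1898 RPM, lay below all other libraries, and 3 of 6 SHR libraries and 2 of 6 QDG libraries lay below the lowest WKY library. The means were 2933 ± 526 RPM in QDG, 3055 ± 299 RPM in SHR and 3351 ± 299 RPM in WKY (SD, n = 6 each). Without replicate 4, QDG had 3139 ± 156 RPM (SD, n = 5).

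**Figure D1:**
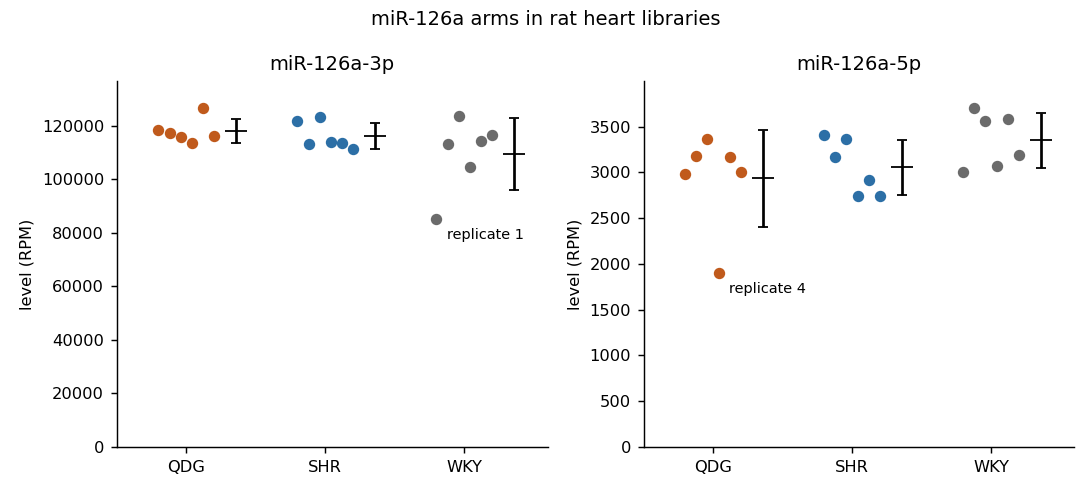
Levels of miR-126a-3p (left) and miR-126a-5p (right) in RPM for each of the 18 libraries; the bars give the mean ± SD of 6 libraries. The groups overlap for both arms, with WKY replicate 1 low for 3p at 85329 RPM and QDG replicate 4 low for 5p at 1898 RPM.

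The order of the mean levels was QDG, SHR, WKY from high to low for 3p and the reverse for 5p, and no neighbours in either order passed the test. The medians did not keep these orders. For 5p the median was 3087 RPM in QDG and 3040 RPM in SHR, and for 3p it was 113779 RPM in SHR and 113827 RPM in WKY. Without replicate 4 the QDG mean of 5p, 3139 RPM, was above the SHR mean of 3055 RPM. Without replicate 1 the WKY mean of 3p, 114474 RPM, was still the lowest. Each arm was tested with limma on log2(RPM + 1) over the 410 miRNAs that reached 1 RPM in 6 or more libraries, with p-values adjusted over all 410 and a threshold of 0.05. Fold changes below are log2 with their standard error (SE).

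QDG against SHR asks whether the treatment changed the miRNA within the hypertensive strain. miR-126a-3p had a log2 fold change of 0.022 ± 0.073 (SE, 95% interval -0.13 to 0.17, limma adjusted p = 0.983). miR-126a-5p had -0.077 ± 0.11 (SE, 95% interval -0.30 to 0.15, limma adjusted p = 0.983). On the linear scale these intervals run from 0.915-fold to 1.13-fold for 3p and from 0.810-fold to 1.11-fold for 5p, so larger changes than these lie outside them. Without QDG replicate 4 the 5p difference was 0.044. Of all 410 miRNAs 0 were called by limma (0% of those tested), with 15 at an unadjusted p under 0.05 (3.66%), and edgeR and DESeq2 called 0 too. The groups overlapped for both arms, as they did for all 410.

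SHR against WKY asks how the hypertensive strain differs from the normotensive one. miR-126a-3p had 0.094 ± 0.073 (SE, 95% interval -0.056 to 0.24, limma adjusted p = 0.406). The WKY mean had 6 of 6 SHR libraries above it, but 2 of 6 when WKY replicate 1 was left out, and the SHR median of 113779 RPM was below the WKY median of 113827 RPM. miR-126a-5p had -0.13 ± 0.11 (SE, 95% interval -0.36 to 0.092, limma adjusted p = 0.434), with 4 of 6 SHR libraries below the WKY mean, and 6 of 6 without WKY replicate 1. Neither arm was called, where 23.2% of all miRNAs tested were (8.05% higher and 15.1% lower in SHR). At an unadjusted p under 0.05 the share was 34.4%, and for 10.2% the groups did not overlap. The call of 3p depended on the method: DESeq2 gave 0.17 with an adjusted p of 0.0479, edgeR gave 0.14 with 0.129, and without WKY replicate 1 the limma value was 0.023. Strain, blood pressure and handling cannot be told apart here.

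QDG against WKY sets the treated hypertensive animals against the normotensive strain and shares its libraries with the comparisons above. miR-126a-3p had 0.12 ± 0.073 (SE, 95% interval -0.034 to 0.26, limma adjusted p = 0.290), with 6 of 6 QDG libraries above the WKY mean, and 5 of 6 without WKY replicate 1. miR-126a-5p had -0.21 ± 0.11 (SE, 95% interval -0.44 to 0.015, limma adjusted p = 0.196), with 5 of 6 QDG libraries below the WKY mean, and 6 of 6 without WKY replicate 1. Here 17.8% of all miRNAs tested were called (7.32% higher and 10.5% lower in QDG) and neither arm was. At an unadjusted p under 0.05 the share was 31%, and for 8.05% the groups did not overlap. Under upper quartile scaling the 3p value was 0.22 with a limma adjusted p of 0.0297. Without QDG replicate 4 the 5p value was -0.091, and without WKY replicate 1 the 3p value was 0.045.

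The mean 3p/5p ratio was higher in QDG and in SHR than in WKY, by an amount that passed a test of this miRNA alone but not the fit over all arm pairs. In QDG the lowest, median and highest libraries had ratios of 34.4, 39.2 and 59.8. In SHR they had 35.8, 37.9 and 41.5. In WKY they had 28.4, 33.0 and 36.5. QDG replicate 4 lay above all other libraries at 59.8, while the next highest ratio in QDG was 40.0. Of 6 libraries each, 5 QDG and 4 SHR libraries lay above the highest WKY library, and the groups still overlapped. The means were 41.6 ± 9.18 in QDG, 38.2 ± 2.51 in SHR and 32.7 ± 2.95 in WKY (SD, n = 6 each), and QDG without replicate 4 had 37.9 ± 2.33 (SD, n = 5).

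**Figure D2:**
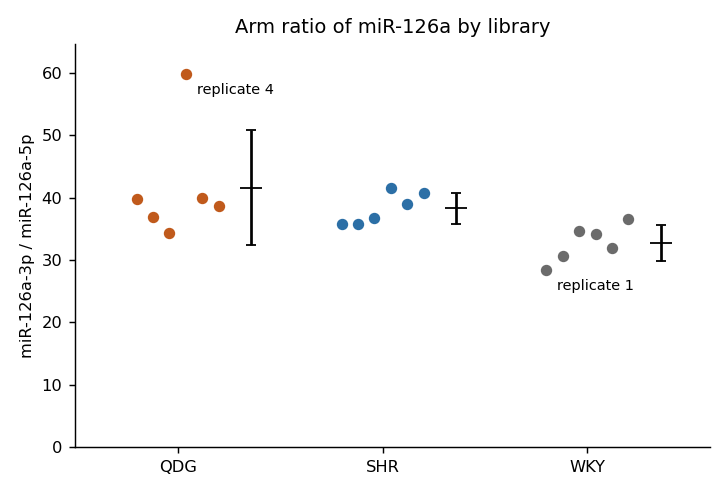
Ratio of miR-126a-3p to miR-126a-5p in each library, with mean ± SD of 6 libraries. Of 6 libraries each, 5 QDG and 4 SHR libraries lie above the highest WKY library at 36.5, and QDG replicate 4 stands apart at 59.8.

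Seen as a share, the 5p arm held 2.42% ± 0.407 of the reads of both arms in QDG, 2.56% ± 0.162 in SHR and 2.99% ± 0.268 in WKY (SD, n = 6 each). In QDG replicate 4 it held 1.64% (exact 95% binomial interval 1.61 to 1.67%). In WKY replicate 1 it held 3.40% (exact 95% binomial interval 3.35 to 3.45%). These intervals cover counting error only, and they are far narrower than the spread between libraries.

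The ratio was tested as log2 of (3p + 1)/(5p + 1) over all 126 pairs of arms that share a stem name, of which both passed the filter, again with limma. For SHR against WKY the log2 difference was 0.23 ± 0.12 (SE, 95% interval -0.010 to 0.47, unadjusted p = 0.0602, limma adjusted p = 0.312). For QDG against WKY it was 0.33 ± 0.12 (SE, 95% interval 0.088 to 0.57, unadjusted p = 0.00903, limma adjusted p = 0.163). In each of these comparisons 6 of 6 libraries lay above the WKY mean, with or without WKY replicate 1. For QDG against SHR it was 0.099 ± 0.12 (SE, 95% interval -0.14 to 0.34, limma adjusted p = 0.987), and -0.011 without QDG replicate 4.

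In each comparison with WKY, 1 of the 126 pairs was called (0.794%), and it was miR-490 both times. At an unadjusted p under 0.05 there were 20 in SHR against WKY (15.9%) and 14 in QDG against WKY (11.1%). The groups did not overlap for 0.794% and 2.38% of the pairs in these comparisons, and miR-126a was not among them. For QDG against SHR limma called 0 (0%), with 1 at an unadjusted p under 0.05. The miR-126a pair had the 23rd smallest p of 126 in SHR against WKY and the 7th smallest in QDG against WKY. The median difference of all pairs was -0.0052 in SHR against WKY and 0.031 in QDG against WKY.

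For the miR-126a ratio alone, a two-sided exact permutation test of 6 against 6 libraries gave p = 0.00649 for SHR against WKY and p = 0.00649 for QDG against WKY (adjusted over the 3 comparisons, 0.00974 each). The smallest p this test can give is 0.00216. For QDG against SHR it gave an exact p = 0.582. Without QDG replicate 4 the test of QDG against WKY gave 0.22 and an exact p = 0.0130. The miRNA was chosen with earlier results of these data known, so the single test is not independent evidence.

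**Figure D3:**
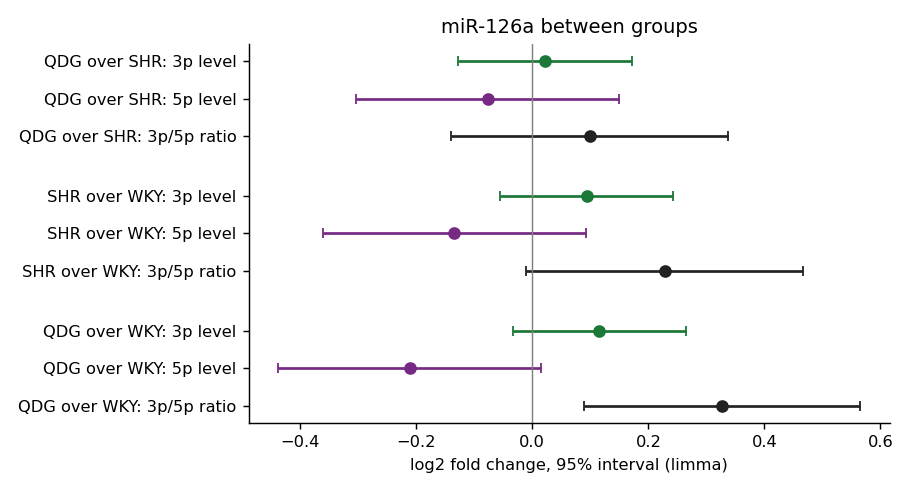
Log2 fold changes with 95% intervals from limma for the 3p level, the 5p level and the 3p/5p ratio in each comparison. The interval of the ratio in QDG over WKY, 0.088 to 0.57, is the one that leaves out 0 before adjustment.

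How unequal the arms were can be set beside other miRNAs. The mean log2 ratio of miR-126a was 5.21, a 37.0-fold excess of 3p, and 56 of the 126 pairs had more 3p than 5p. Of the 20 pairs with both arms at 100 RPM or more on average, miR-126a had the 4th largest 3p excess. Just above it was miR-378a, a miRNA of a gene for a metabolic coactivator, with a mean log2 ratio of 5.99. Just below it was miR-22, a miRNA linked to growth of heart muscle, with 4.94. The SD of the miR-126a log2 ratio was 0.28 in QDG, 0.094 in SHR and 0.13 in WKY (n = 6 each). For miR-378a it was 0.35 in QDG, 0.12 in SHR and 0.29 in WKY, and for miR-22 it was 0.15 in QDG, 0.14 in SHR and 0.12 in WKY. Ratios of reads also carry how well each sequence enters a library, which was not measured here.

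**Figure D4:**
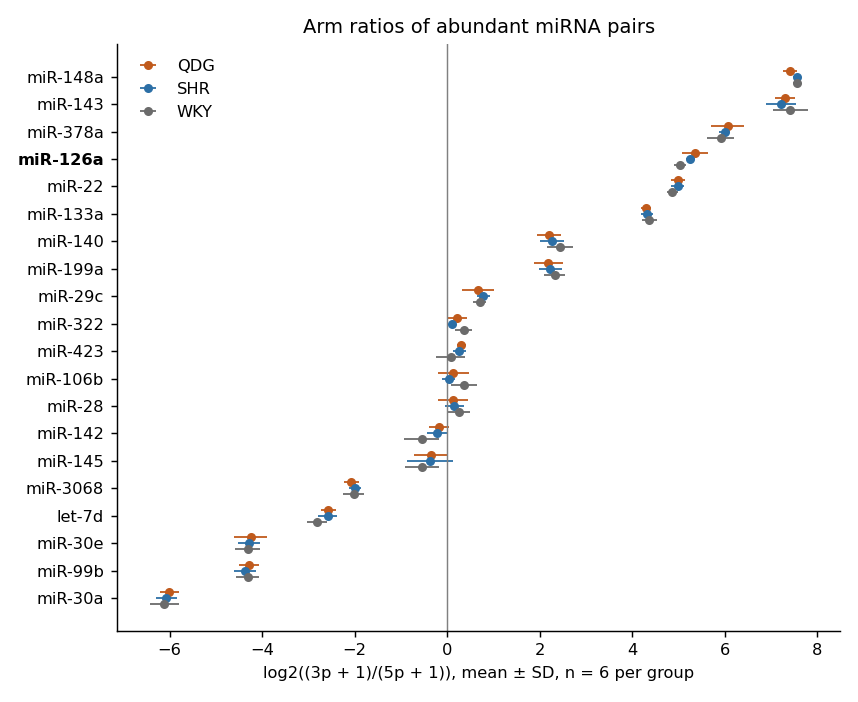
Mean log2 arm ratio ± SD (n = 6) in QDG, SHR and WKY for the 20 pairs with both arms at 100 RPM or more on average, sorted by the mean over all libraries. Positive values mean more 3p than 5p; miR-126a is the 4th from the top, with QDG at 5.35 and SHR at 5.25 above WKY at 5.03.

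In mean level miR-126a-3p stood between rows of muscle miRNAs, with miR-1b above it and miR-1-3p below it. miR-126a-3p and miR-1-3p lay within their spread of each other in the hypertensive strain: miR-1-3p had 114140 ± 7938 RPM in QDG and 117240 ± 10227 RPM in SHR (SD, n = 6 each). In WKY, miR-1-3p had 70589 ± 8617 RPM (SD, n = 6), so miR-126a-3p stood at a clearer distance there, although its lowest library, at 85329 RPM, was below the highest of miR-1-3p, at 85643 RPM. The next 2 rows were miR-26a-5p and miR-99a-5p. Around miR-126a-5p the rows were miR-378b, miR-101a-3p and let-7b-5p above and miR-152-3p, miR-23a-3p and miR-10a-5p below, of which miR-23a-3p and miR-10a-5p are also on the endothelial list given further on. The first below, miR-152-3p, had 2987 ± 279 RPM in QDG, 3057 ± 371 RPM in SHR and 3271 ± 478 RPM in WKY (SD, n = 6 each), which is within the spread of miR-126a-5p in every group.

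To set the endothelial miRNA against heart muscle without the scaling, miR-126a-3p was divided by the summed level of 8 muscle miRNAs (the miR-1, miR-133, miR-208 and miR-499 entries). Of these, limma called 2 as higher and 0 as lower in each comparison with WKY (25.0%, beside 23.2% over all 410 for SHR and 17.8% for QDG). They were miR-1-3p (log2 0.74 in SHR and 0.70 in QDG) and miR-208b-3p (0.89 and 0.72). The related row miR-1b had -0.12 in SHR and -0.14 in QDG, uncalled. Most of the muscle sum was miR-1b and miR-1-3p, with means of 372143 and 100656 RPM over the 18 libraries, beside 554478 RPM for all 8. The ratio was 0.215 ± 0.0152 in QDG, 0.208 ± 0.0104 in SHR and 0.201 ± 0.0361 in WKY (SD, n = 6 each). WKY replicate 1 was the lowest library, at 0.136, and WKY without it had 0.214 ± 0.0196 (SD, n = 5). The log2 differences were 0.048 for QDG against SHR, 0.069 for SHR against WKY and 0.12 for QDG against WKY (two-sided exact permutation p = 0.361, 0.710 and 0.455, adjusted over the 3 comparisons 0.682, 0.710 and 0.682). Without WKY replicate 1 the difference of SHR from WKY turned to -0.039. In that library the summed muscle miRNAs stood at 625613 RPM, the highest of the 18, and the 16 other endothelial miRNAs at 60589 RPM, the lowest of the 18. Their part in the low 3p value was not tested.

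Other miRNAs abundant in or known from endothelium were counted beside miR-126a. This list holds 16 miRNAs, among them miR-130a, miR-221, miR-222, the miR-23, miR-24 and miR-27 clusters, miR-139 and miR-210, and several are also made by other heart cells. Its summed level was 69935 ± 3265 RPM in QDG, 68583 ± 4846 RPM in SHR and 66885 ± 4505 RPM in WKY (SD, n = 6 each), which is less than the level of miR-126a-3p alone. In SHR against WKY 3 of 16 rose and 1 fell, so that 25.0% of the list was called, near the 23.2% over all 410 miRNAs. The risers were miR-130a-3p, which represses antiangiogenic homeobox genes (log2 0.35, limma adjusted p = 0.0158), miR-221-3p, which restrains Kit in endothelium (0.36, adjusted p = 0.0246), and miR-218a-5p, which acts on Robo receptors (0.33, adjusted p = 0.0127). The faller was miR-210-3p, induced by low oxygen (-0.52, adjusted p = 0.000151). The list's median was -0.024, beside -0.067 over all 410.

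In QDG against WKY 2 of 16 rose and 1 fell, so that 18.8% of the list was called, near the 17.8% over all 410. These were miR-130a-3p (0.36, limma adjusted p = 0.0145), miR-218a-5p (0.38, adjusted p = 0.00528) and miR-210-3p (-0.54, adjusted p = 0.000165). The median was 0.023, beside -0.062 over all 410. In QDG against SHR limma called 0 of 16, with a median of 0.017 beside 0.016 over all.

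Markers of other cell types that heart tissue holds were all detected. Summed smooth muscle miRNAs (4 of 4 present) ranged from 53819 to 75150 RPM in QDG, 44421 to 65776 RPM in SHR and 50015 to 75140 RPM in WKY. Leukocyte and platelet miRNAs (6 of 6 present) ranged from 5124 to 7754 RPM in QDG, 6028 to 7167 RPM in SHR and 6464 to 9319 RPM in WKY. miR-126 is known from platelets too. The mean of this leukocyte and platelet sum was 6619 RPM in QDG, 6416 RPM in SHR and 7711 RPM in WKY. Most of it was the single row miR-146a-5p, with means of 5276, 5111 and 6301 RPM in the same groups. Of the 6 members of the sum, limma called 2 as higher in QDG than in WKY (miR-155-5p and miR-142-3p) and 1 as higher in SHR than in WKY (miR-155-5p). In these comparisons miR-150-5p had -0.27 and -0.24 and miR-146a-5p -0.26 and -0.29, uncalled. The calls make up 33.3% and 16.7% of this short list, where 17.8% and 23.2% of all 410 miRNAs were called. Red blood cell miRNAs (4 of 4) ranged from 4261 to 5727 RPM in QDG, 4373 to 6058 RPM in SHR and 3760 to 5778 RPM in WKY, and neuronal miRNAs (5 of 5) from 1150 to 1425 RPM in QDG, 1082 to 1460 RPM in SHR and 1118 to 1379 RPM in WKY. Most of the neuronal sum came from miR-128-3p (means of 837, 851 and 742 RPM in QDG, SHR and WKY) and miR-9a-5p (448, 411 and 465 RPM). The neuronal miR-124-3p had means of 0.675, 0.786 and 1.13 RPM in these groups, near the filter of 1 RPM. Of the neuronal list 1 of 5 was called, miR-129-5p, as lower in QDG than in WKY (-0.86, limma adjusted p = 0.000516) and in SHR than in WKY (-0.55, adjusted p = 0.0192). For fibroblasts and stroma (4 of 4) the means were 36751 ± 1979 RPM in QDG, 37319 ± 7905 RPM in SHR and 30336 ± 1851 RPM in WKY (SD, n = 6 each). Here 1 of 4, miR-21-5p, was called as higher in SHR and in QDG than in WKY (25.0% each time). In QDG replicate 4, where 5p was lowest, the heart muscle sum was the lowest of the 18, at 492525 RPM. The smooth muscle sum of that library was the highest, at 75150 RPM, nearly equal to the 75140 RPM of the highest WKY library. The part of these cell types in the miR-126a values was not tested.

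How far the arms rose and fell together depended on whether the group means were left in and, within QDG, on replicate 4. Over the 18 libraries Pearson's r of their log2 levels was 0.19 (permutation p = 0.343) and Spearman's rho was 0.37 (permutation p = 0.135). Within groups r was 0.47 in QDG, 0.85 in SHR and 0.72 in WKY (n = 6 each, exact permutation p = 0.258, 0.0542 and 0.0722). Spearman's rho was 0.14, 0.71 and 0.49 in the same groups (exact permutation p = 0.803, 0.136 and 0.356). Adjusted over these 4 relations, the lowest p for r was 0.144 and the lowest for rho was 0.272. Without QDG replicate 4, r within QDG was -0.045 and rho was -0.50 (n = 5, exact permutation p = 0.933 and 0.45). With each arm centred on its group mean, r over the 18 libraries was 0.44 (permutation p = 0.0707) and rho was 0.62 (permutation p = 0.00679, not adjusted). Leaving out the 2 libraries farthest from the 3p median gave r = 0.32 (permutation p = 0.220). Both arms share a library and its scaling, which can raise or lower such values.

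**Figure D5:**
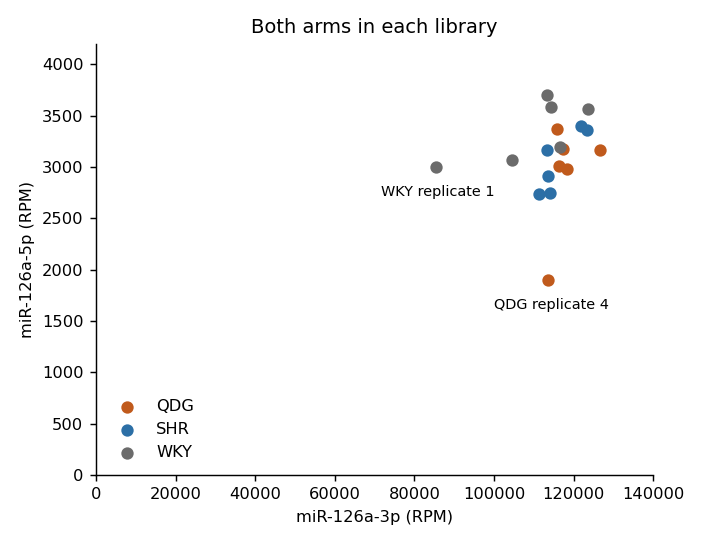
Level of miR-126a-5p against miR-126a-3p in RPM, 1 point per library. Apart from WKY replicate 1 on the left and QDG replicate 4 at the bottom, the libraries lie close together, with r = 0.19 over all 18 and r = 0.44 after centring on group means.

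The rows most like each arm across the 18 libraries were found by Pearson's r of log2 levels among 247 other miRNAs with a mean of 10 RPM or more. For miR-126a-3p they were miR-24-2-5p (r = 0.93), miR-24-3p (0.90), miR-32-5p (0.88), miR-142-3p (0.79) and miR-15b-5p (0.78). Without WKY replicate 1 these were 0.75, 0.61, 0.59, 0.34 and 0.33. For miR-126a-5p they were miR-374-5p (r = 0.90), miR-201-5p (0.88), miR-499-5p (0.87), miR-29a-3p (0.85) and miR-450b-3p (0.81). Without QDG replicate 4 these were 0.74, 0.78, 0.83, 0.72 and 0.70. The lists of the arms had no member in common, and the other arm of the hairpin ranked 110th in likeness to 3p and 125th in likeness to 5p. These are descriptions of the highest values among many, over libraries that share their scaling.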

How the data were processed

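RNA was extracted with Trizol and libraries were made with an NEBNext small RNA kit, per the labels' protocols. The authors deposited 1 table per library with normalized read counts per mature miRNA, per the file headers, treated here as a signal. In each library every value was a whole multiple of 1 step, and 10782 of 10782 values came out within 0.01 of a whole read, so the values are reads per 1000000 of a library-specific divisor of 4449279 to 7403775 reads. What that divisor counts is not stated; the values sum to 1338745 to 1508772 per library. FastQC, TopHat2 and limma are listed in the submitters' processing notes, with no version or role. The genome build, the miRNA set and the handling of reads that match several miRNAs are not given there.

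Here log2(RPM + 1) of the 18 libraries was tested with limma (version 3.58.1, R version 4.3.3), using the trend and robust options and no covariate, after a filter of at least 1 RPM in at least 6 libraries (410 of 599 rows). Arm ratios were fitted likewise over 126 pairs. Adjusted p-values are Benjamini-Hochberg. edgeR 4.0.16, DESeq2 1.42.0 and limma-voom were run on the recovered reads as alternatives, where edgeR called 89 and limma 95 of 410 miRNAs in SHR against WKY. Exact tests used Python 3.11.15. The limma fits were tested on simulated data for SHR against WKY only. Each miRNA was drawn on its own there, so the simulation holds no outlying library and cannot show how such libraries affect the fits. RNAfold 2.7.2 with default settings gave the hairpin fold.

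The members, lists and tests were chosen with earlier results of these data known. Other miRNAs were named by a fixed rule: the 3 rows next above and below each arm in level, the 5 most correlated with each arm, neighbouring abundant pairs, and called members of the endothelial list. The list members miR-21-5p, miR-155-5p, miR-142-3p, miR-150-5p, miR-146a-5p, miR-129-5p, miR-124-3p, miR-128-3p, miR-9a-5p and miR-208b-3p, and miR-490, were named after their values were seen.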

Additional observations from a re-analysis of the deposited data

Results flagged for a closer look

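Within the QDG group 3 values stood apart from the other 5 libraries, by a gap to the nearest of more than 0.625 of the group's range. Chance alone marks about 1 in 20 groups in this way, and 12 groups of 6 values were looked at. The level of miR-126a-3p in QDG replicate 5 was 126667 RPM, the highest of the group, where the next library had 118342 RPM. Its gap was 0.636 of the range, just past the limit. The level of miR-126a-5p in QDG replicate 4 was 1898 RPM, the lowest, with a gap of 0.735 of the range. The 3p/5p ratio in QDG replicate 4 was 59.8, the highest, with a gap of 0.780 of the range.

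The low 5p level and the high ratio come from the same library. In QDG replicate 4 the log2 ratio of miR-126a lay 0.66 above the mean of the other 5 QDG libraries, which was the 24th largest shift of the 126 pairs in that library and the 5th largest of the 20 abundant pairs. The median size of the shift over all pairs was 0.32. Of the 410 miRNAs tested, 14 had QDG replicate 4 standing apart from the rest of its group in the same sense, against 1 to 7 for each of the other QDG libraries. QDG replicate 4 was not alone in this among the 18 libraries. SHR replicate 5 stood apart from its group in 15 and WKY replicate 1 in 8.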

How the results depend on the processing

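Of 364 values recomputed for 13 results under other settings, 342 kept direction and side of the threshold, 6 passed where the reported value did not, and 16 changed sign. None of the 16 was past the threshold. For miR-126a-3p in QDG against SHR the value was -0.00081 under TMM, -0.0088 under RLE and -0.028 when scaled without the top 10 miRNAs, and -0.0013 with edgeR, -0.0088 with DESeq2 and -0.00045 with limma-voom. The 3p level passed in QDG against WKY under upper quartile scaling (0.22) and in SHR against WKY with DESeq2 (0.17); the limma adjusted p under the 4 other scalings was 0.0576 to 0.144 in SHR against WKY. The ratio to muscle miRNAs was -0.16 in QDG against SHR when smooth muscle miRNAs took their place (with 0.33 in SHR against WKY, exact permutation p = 0.0563, adjusted 0.169, and 0.16 in QDG against WKY), -0.059 in SHR against WKY without WKY replicate 1 and SHR replicate 5 together, and, without WKY replicate 1 and QDG replicate 4 together, -0.039 in SHR against WKY and -0.012 in QDG against WKY. That pair of libraries was chosen after seeing the data, and without it the 5p level was 0.044 and the arm ratio -0.011 in QDG against SHR. The exact test of the arm ratio alone passed for SHR against WKY (0.23) and QDG against WKY (0.33), and without QDG replicate 4 (0.23 and 0.22, with -0.011 for QDG against SHR). Over all 126 pairs 1 was called in each comparison with WKY, but with a pseudocount of 5 there were 13 in SHR against WKY and 9 in QDG against WKY, and with no filter 9 and 6 of 216; the adjusted p of miR-126a was then 0.225 and 0.101, and 0.278 and 0.106. The cause of these shifts was not tested.

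With 1 library left out at a time, 3p ranged from 0.0013 to 0.039 in QDG against SHR, 0.023 to 0.13 in SHR against WKY and 0.045 to 0.15 in QDG against WKY, and, in the same order of comparisons, 5p from -0.12 to 0.044, -0.17 to -0.10 and -0.26 to -0.091. The arm ratio ranged from -0.011 to 0.15, 0.19 to 0.26 and 0.22 to 0.38, and the ratio to muscle miRNAs from 0.019 to 0.070, -0.039 to 0.13 and 0.0088 to 0.18. The arm correlation was 0.31 without QDG replicate 4 and 0.026 under TMM.

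Libraries of equal replicate number in different groups deviated together only weakly, with a median r of -0.04 to 0.11. Between QDG and WKY 4 of 6 such pairs had r over 0.1. The share of pairs of unlike number with r over 0.1 is not given here. In 5 of 36 cases a library correlated best with its own number in another group, each time among the 6 libraries of that group. With the replicate block the arm ratio had a limma adjusted p of 0.212 in SHR against WKY and 0.128 in QDG against WKY. The miRNAs called then numbered 93, against 95, in SHR against WKY and 77, against 73, in QDG against WKY. No call on miR-126a changed.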

Other observations

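The base composition of the rows that moved like each arm was set beside that of all rows. miR-126a-5p is 61.9% A or U and miR-126a-3p 54.5%, where 54.5% was also the median of the 223 of 247 comparison miRNAs with a sequence. Across those 223 miRNAs the A or U content had r = 0.25 with likeness to miR-126a-5p and -0.046 with likeness to miR-126a-3p. For 58 miRNAs of 60% A or U or more, the median likeness to 5p was 0.36. For 61 miRNAs under 50%, it was 0.06. In QDG replicate 4, where miR-126a-5p lay 0.72 log2 units below the mean of the other 5 QDG libraries, the 58 lay at a median of -0.26 and the 61 at 0.037, and r of A or U content with this deviation was -0.31. Without QDG replicate 4 the r with likeness to 5p was 0.18, and without WKY replicate 1 the r with likeness to 3p was 0.29. These are descriptions across miRNAs that share libraries, and their part in the 5p level was not tested.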
